A study of Mus musculus with 58 samples.

Results

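The genes described here are 9 genes of heart muscle, Myh6, Myl7, Myl4, Sln, Nppa, Tnnt2, Tnni3, Actc1 and Ryr2, as measured in the lung and, beside it, in the liver and forestomach of the same mice. They were matched through the accession of each array probe, which gave 10 probes of 55681 on the array and 9 genes of 20668 that could be named, and all 9 were tested. The members were chosen because their lung values were already known to differ between mice, so their lung levels and lung differences are a description without a test. Liver and forestomach values took no part in the choice.

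Heart muscle contracts through a sarcomere of myosin, actin and the troponin complex, and calcium released from the sarcoplasmic reticulum starts each beat. In mice, sleeves of heart muscle of the atrial kind surround the pulmonary veins and run into the lung, so a piece of lung can hold heart muscle cells. Neither the liver nor the forestomach, whose wall holds smooth muscle under a keratinized epithelium, is known to hold heart muscle.

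The mice were Muta™Mouse males, a transgenic strain, of about 13 weeks, gavaged for 28 days with olive oil alone (vehicle), or with indeno(123,cd)pyrene (IP), a polycyclic aromatic hydrocarbon, at a daily dose per kg of body weight of 12.5, 25 or 50 mg (mg/kg-bw/day) in that oil, and tissue was taken 72 hours after the last dose. Lung had 5 arrays in each of the 4 groups, and liver and forestomach had 4 vehicle arrays and 5 for each dose, 58 arrays in all. Vehicle mouse 4 was measured in lung only, although the methods counted 4 vehicle mice at necropsy. The transgene and the strain were shared by all groups, the mice were killed by cardiac puncture, and the tissue taken was the right lobe of the lung, and the vessel content of each piece was not measured. Each array compared the tissue RNA (Cy5) with 1 reference RNA pooled from 11 mouse cell lines (Cy3). Values below are log2 ratios of tissue to reference unless stated, so 1 unit is a doubling, and a probe's ratio says nothing about the level of another gene. In RNA from whole tissue, fewer cells of a type and less RNA per cell cannot be told apart.

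The tissues carried their own markers. The mean log2 ratio of 8 lung epithelium genes was 5.16 to 5.83 in every lung array and at most 1.76 in any other array. The 4 hepatocyte genes averaged 7.11 to 8.55 in liver and at most 1.19 in lung. In forestomach they averaged 0.27 to 4.28, with medians of 3.12 in vehicle mice and 1.44, 1.26 and 1.96 from the low to the high dose. The 6 keratinized epithelium genes averaged 5.77 to 6.81 in forestomach. The share of probes with Cy5 well above background ranged from 53.0% to 90.7% in lung, 37.6% to 78.9% in liver and 43.0% to 85.9% in forestomach. The arrays of lung mice 3, 8, 13 and 18, which shared 1 slide, of liver mice 9, 13, 15, 16 and 20 and of forestomach mice 8 and 18 stood more than 20 percentage points above the median of their tissue, and results that rest on them are given without them too.

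Myh6, Myl7, Myl4, Sln, Tnnt2 and Tnni3 moved together from lung to lung, while the log2 ratio of Actc1 kept to a narrow range. The stretches of 250 bases before the annotated starts of 4 members, each holding letters that were searched, are printed. They come from RefSeq on GRCm38.p6, where 8 of the 9 members had an entry (Sln had none, and Tnnt2 had 2, of which the more upstream is shown). For Myh6, Tnnt2, Myl4 and Tnni3 the start of the entry lay inside the annotated span of the gene, not at its outer end. Capitals mark letters that were searched on either strand. The search for GATA factors took AGATAA, where the base at the front could also be T and the one at the end could also be G. The search for the MCAT element took the letters CATTCC. The CArG box, bound by serum response factor, was searched by its usual definition.
Myh6 (chr14:54966608-54966857, minus strand): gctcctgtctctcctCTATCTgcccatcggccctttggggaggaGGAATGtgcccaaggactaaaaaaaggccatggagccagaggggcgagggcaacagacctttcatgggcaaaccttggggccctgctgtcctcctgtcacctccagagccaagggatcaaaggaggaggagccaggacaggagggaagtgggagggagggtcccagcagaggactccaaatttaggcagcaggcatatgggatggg
Myl7 (chr11:5898783-5899032, minus strand): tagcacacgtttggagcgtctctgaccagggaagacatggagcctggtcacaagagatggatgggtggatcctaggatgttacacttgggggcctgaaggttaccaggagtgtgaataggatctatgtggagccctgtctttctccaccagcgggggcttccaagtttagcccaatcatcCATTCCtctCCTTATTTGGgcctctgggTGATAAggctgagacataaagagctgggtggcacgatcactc
Tnnt2 (chr1:135836084-135836333, plus strand): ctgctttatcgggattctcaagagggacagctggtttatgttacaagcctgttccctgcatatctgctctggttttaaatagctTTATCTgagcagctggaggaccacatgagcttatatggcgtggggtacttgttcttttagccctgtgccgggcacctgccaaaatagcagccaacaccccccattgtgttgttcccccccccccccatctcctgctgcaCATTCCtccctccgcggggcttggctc
Actc1 (chr2:114052876-114053125, minus strand): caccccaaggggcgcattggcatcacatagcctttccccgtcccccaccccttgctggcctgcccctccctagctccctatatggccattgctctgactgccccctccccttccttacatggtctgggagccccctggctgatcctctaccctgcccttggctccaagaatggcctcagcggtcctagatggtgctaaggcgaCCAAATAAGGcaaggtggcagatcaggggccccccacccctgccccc
The GATA letters stood before 4 members (Myh6, Myl7, Tnnt2 and Nppa) and before 26.5% of all 32851 promoters of the table. The letters CATTCC stood before 3 members (Myh6, Myl7 and Tnnt2) and 12.6% of promoters. A CArG box stood before Myl7 and Actc1 and before 1.47% of promoters, TATAAA before Nppa alone among the members and 12.4% of promoters, and no member held a MEF2 site, found before 2.92% of promoters. The stretches of Myl4 and Tnni3 held 0 matches to the letters marked, although their r with the mean of the other 8 members in lung was 0.97 and 0.92. For Nppa, which held the GATA letters, that r was 0.43. These are matches of letters in a short window and no binding was measured. A link between the letters and the lung values was not tested.

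The widest differences in the heart muscle genes lay between single lungs. Myh6 encodes the alpha myosin heavy chain, the motor protein of mouse heart muscle. Its log2 ratios in vehicle mice 1 to 5 were 5.08, 6.15, 5.73, 6.38 and 7.10. At 12.5 mg/kg-bw/day they were 5.98, 5.05, 6.26, 0.66 and 4.13 in mice 6 to 10. At 25 mg/kg-bw/day mice 11 to 15 had 0.52, 4.91, 5.95, 0.56 and 6.10, and at 50 mg/kg-bw/day mice 16 to 20 had 5.55, 5.87, 0.31, 6.09 and 4.94. Mice 9, 11, 14 and 18 lay close to the reference while the next lowest mouse was 3.47 log2 units above them, and of the other 11 dosed mice 7 lay within the vehicle range and 4 below it, at 4.13 to 5.05. The whole range over 20 lungs was 111-fold, and the Cy5 signal was above background on 20 of 20 arrays. A dimmer second probe for Myh6 ranged from −0.20 to 2.01 in lung.

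**Figure D1:**
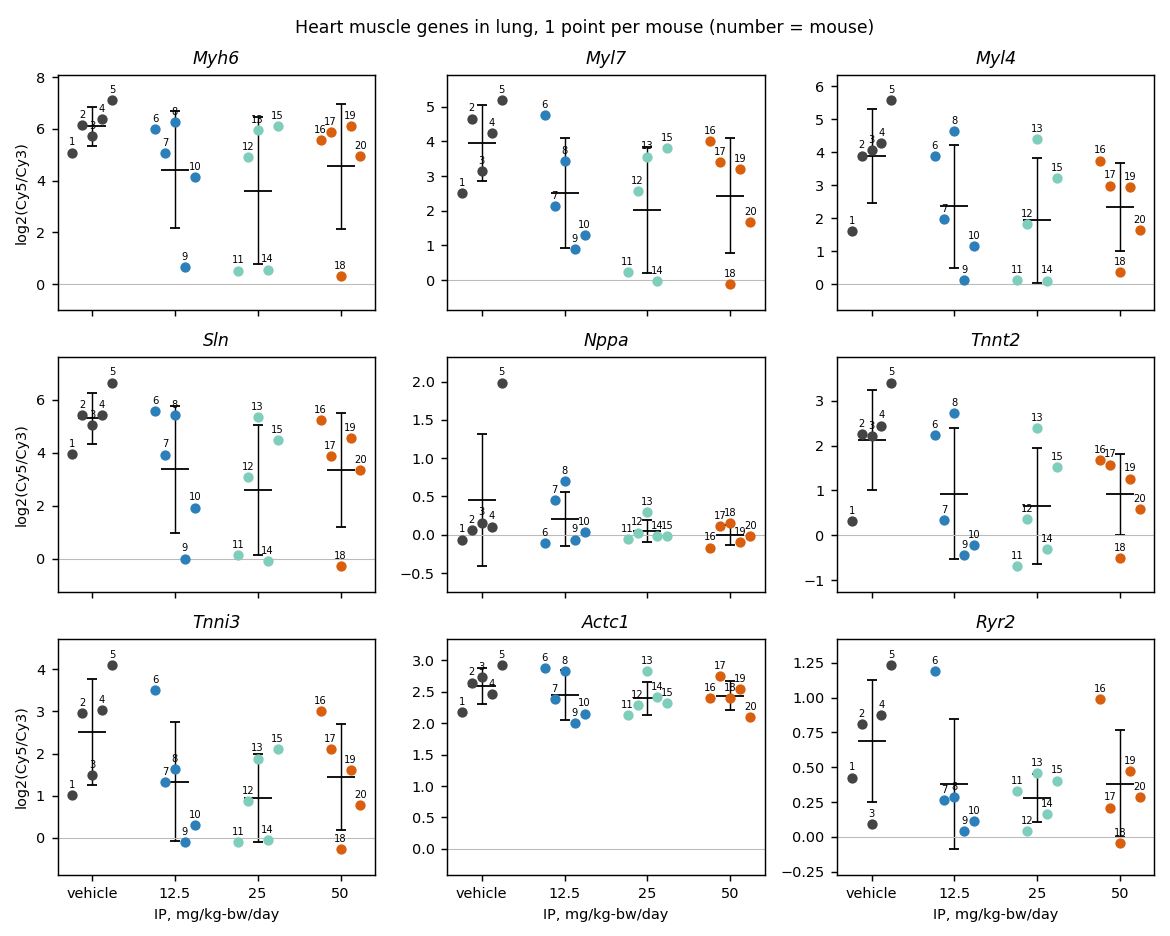
Log2(Cy5/Cy3) of the 9 heart muscle genes in lung against dose, 1 point per mouse with its number, and bars for the mean and SD of 5 mice; each panel has its own vertical scale. Mice 9, 11, 14 and 18 are the lowest 4 in Myh6, Myl7, Myl4, Sln, Tnnt2 and Tnni3, and vehicle mouse 5 is the highest in all 9 genes.

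Sln encodes sarcolipin, a small inhibitor of the calcium pump that is made in atrial muscle and in some skeletal muscles. In vehicle mice 1 to 5 its log2 ratios were 3.94, 5.41, 5.03, 5.43 and 6.64. The mice at 12.5 mg/kg-bw/day had 5.55, 3.92, 5.43, 0.00 and 1.92, those at 25 had 0.14, 3.07, 5.32, −0.08 and 4.48, and those at 50 had 5.22, 3.88, −0.30, 4.55 and 3.32. The same 4 mice were lowest, with Sln not above background on any of their 4 arrays and above it on the other 16.

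Myl7 and Myl4 encode the regulatory and the essential myosin light chain of atrial muscle. Myl7 was 2.51, 4.66, 3.14, 4.24 and 5.19 in vehicle mice 1 to 5, followed by 4.75, 2.14, 3.42, 0.89 and 1.29 at 12.5 mg/kg-bw/day. It was 0.24, 2.56, 3.56, −0.02 and 3.81 at 25 and 4.00, 3.40, −0.12, 3.20 and 1.67 at 50 mg/kg-bw/day. Every dose group held mice within the vehicle range of Myl7 and mice below it, and the lowest and highest lungs differed 39.5-fold. Myl4 was 1.60, 3.89, 4.07, 4.28 and 5.58 in vehicle mice, then 3.89, 1.97, 4.63, 0.13 and 1.15 at 12.5 mg/kg-bw/day, 0.13, 1.82, 4.39, 0.11 and 3.21 at 25, and 3.75, 2.99, 0.35, 2.93 and 1.64 at 50. All dose groups overlapped the vehicle range of Myl4, that at 50 mg/kg-bw/day only through vehicle mouse 1, which was low, and the range over all lungs was 44.2-fold.

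Tnnt2 and Tnni3 encode the heart forms of troponin T and troponin I, which tie contraction to calcium. Tnnt2 was 0.31, 2.25, 2.21, 2.44 and 3.40 in vehicle mice, then 2.23, 0.34, 2.73, −0.45 and −0.22 at 12.5 mg/kg-bw/day, −0.70, 0.36, 2.40, −0.31 and 1.51 at 25, and 1.68, 1.58, −0.50, 1.26 and 0.57 at 50. Tnni3 was 1.02, 2.96, 1.48, 3.02 and 4.10 in vehicle mice, then 3.51, 1.31, 1.64, −0.11 and 0.29 at 12.5 mg/kg-bw/day, −0.10, 0.86, 1.88, −0.06 and 2.11 at 25, and 3.01, 2.10, −0.26, 1.61 and 0.77 at 50. Both genes had mice 9, 11, 14 and 18 as the lowest 4, but mouse 10 followed closely, 0.09 log2 units above them in Tnnt2 and 0.35 in Tnni3. The ranges over 20 lungs were 17.1-fold for Tnnt2 and 20.6-fold for Tnni3.

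The log2 ratios of the remaining members moved less. Nppa, which encodes the atrial natriuretic peptide, was above background in 6 of 20 lungs and ranged from −0.17 to 1.99, the highest value being that of vehicle mouse 5. Actc1, which encodes the heart form of alpha-actin, was above background in all 20 lungs, ranged from 2.00 to 2.93 and was 2.59 ± 0.28 (SD, n = 5) in vehicle mice. This narrow range is that of the ratio. In lung the Cy5 signal of Actc1 ran from 2082 to 11963 and its Cy3 (reference) signal from 391 to 1809. Ryr2, which encodes the calcium release channel of the sarcoplasmic reticulum, was above background in 17 of 20 lungs and ranged from −0.04 to 1.23. Mice 9, 11, 14 and 18 were the lowest 4 in 6 of the 9 genes, and in Actc1 mice 14 and 18 lay in the middle at 2.42 and 2.40.

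The mean of each dose group was below that of the vehicle group for all 9 members at every dose. Myh6 was 6.09 ± 0.75 (SD, n = 5) in the vehicle group, 4.42 ± 2.26 at the low dose, 3.61 ± 2.84 at the middle dose and 4.55 ± 2.41 at the high dose, and Sln was 5.29 ± 0.97 against 3.36 ± 2.38, 2.59 ± 2.47 and 3.33 ± 2.15. Each dosed group had a larger SD than the vehicle group in these genes, and each held 1 or 2 of the 4 low mice. The log2 fold changes against vehicle ranged over the 9 members from −1.93 to −0.14 at 12.5, from −2.70 to −0.19 at 25 and from −1.96 to −0.15 at 50 mg/kg-bw/day, with medians of −1.20, −1.58 and −1.20. The median did not deepen from 25 to 50 mg/kg-bw/day, and vehicle and dosed mice overlapped for 9 of 9 genes at every dose, while 0.634%, 1.36% and 1.94% of all probes showed no overlap at the low, middle and high dose. By limma, with calls made where the adjusted p reached 0.05 and the fold was 1.5 or more, 0 of 9 members were called at 12.5 mg/kg-bw/day, where 0% of all probes were called, 0 of 9 at 25 (0.0126% of probes) and 0 of 9 at 50 (0.0790% of probes). At an unadjusted p under 0.05 the counts were 0, 5 and 0 of 9, against 3.92%, 6.53% and 8.80% of all probes, and since the members were chosen on these lungs nothing is read from the counts. Without mouse 18 the median at 50 mg/kg-bw/day was −0.64, and without the 4 bright arrays the medians were −1.63, −2.07 and −0.83 at the 3 doses. Under median centring of the arrays, Actc1 turned to positive log2 fold changes of 0.09, 0.12 and 0.16 from the low to the high dose. Its lowest log2 fold changes among the alternatives other than single arrays left out were −0.64, −0.68 and −0.65 at these doses. With 1 array left out, the log2 fold change of Nppa rose as far as 0.14 at 12.5 and −0.02 at 25 mg/kg-bw/day.

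**Figure D2:**
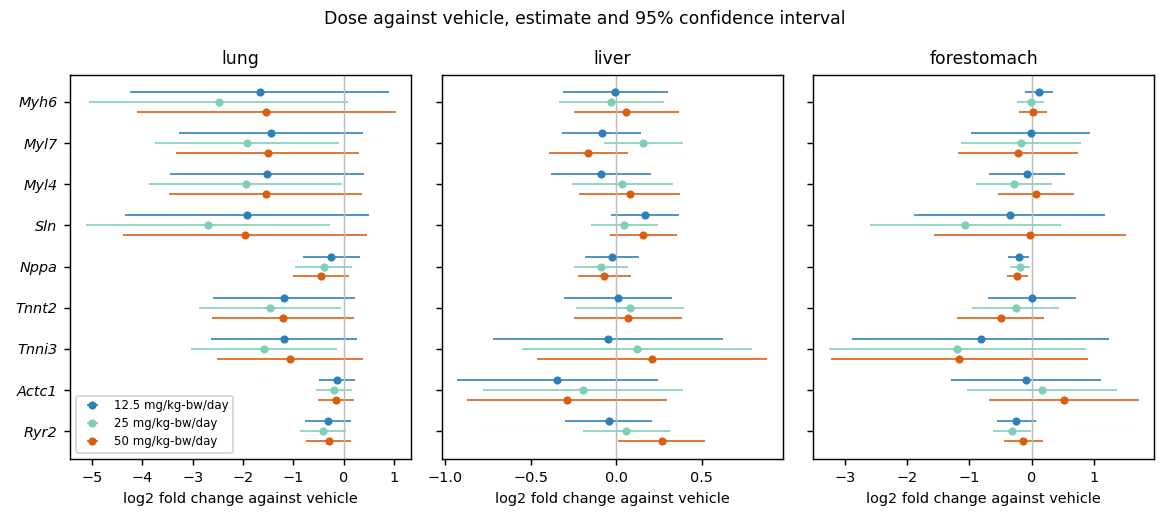
Log2 fold change of each dose against vehicle for the 9 genes in lung, liver and forestomach, with 95% confidence intervals from limma; the horizontal scales differ between tissues. The lung estimates are all negative, from −2.70 to −0.14, and the liver estimates lie between −0.34 and 0.27; the lung intervals are a description, since the genes were chosen on these arrays.

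The 5 lung slides each held 1 mouse of every group, which allowed a comparison within slides. Myh6 was lower than in the vehicle mouse of the same slide on 3 of 5 slides at 12.5, on 4 of 5 at 25 and on 4 of 5 at 50 mg/kg-bw/day, with median differences of −1.1, −1.25 and −1.01. Sln gave the same counts, with median differences of −1.49, −2.35 and −2.09. On 1 slide, that of vehicle mouse 1, the mice at 12.5 and 50 mg/kg-bw/day lay above the vehicle mouse in every member but Nppa, by up to 1.61 for Sln and up to 2.49 for Tnni3. On the slide of vehicle mouse 3 the mice at the low and middle dose lay above the vehicle mouse in all 9 members, by 0.53 and 0.21 for Myh6 and 0.16 and 0.40 for Tnni3, and the mouse at the high dose lay below it in all 9. A fit with slide as a block also called 0 of 9 members at every dose. Each dose group held its own column of the slides, so dose and array column cannot be told apart.

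**Figure D3:**
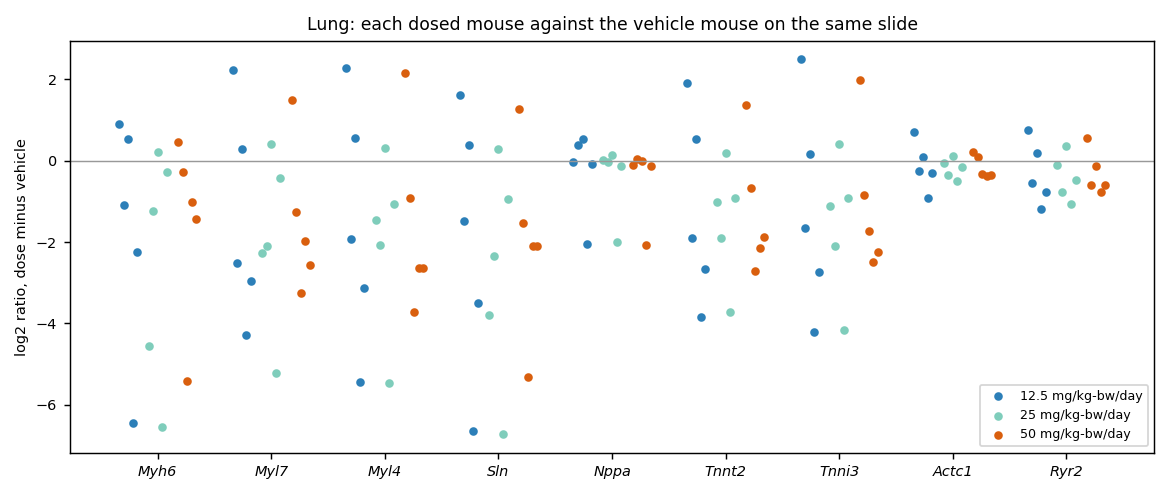
Difference in log2 ratio between each dosed mouse and the vehicle mouse on the same slide in lung, for the 9 genes and 3 doses, 5 slides each. Points lie on both sides of 0 for every gene at 12.5 mg/kg-bw/day and reach −6.72 in Sln at 25 mg/kg-bw/day.

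Markers of other cells were read on the same lung arrays. The median log2 fold changes of the lung epithelium list were 0.01, 0.08 and 0.00 at the 3 doses, and those of the endothelium list 0.02, 0.24 and 0.09. Fat cell genes were lower at every dose, with 7 of 7 below vehicle and medians of −0.67, −1.62 and −1.44, and 0 of 7 were called. Among them Cfd, the adipocyte protease adipsin, had log2 fold changes of −0.67, −2.72 and −1.49, and Fabp4, the fatty acid binding protein of fat cells, −2.11, −2.53 and −2.24. Brown fat genes were also lower in 6 of 6 at every dose, with medians of −0.46, −0.40 and −0.57. By limma 1 of 6 was called, Ucp1, the uncoupling protein of brown fat, at 50 mg/kg-bw/day (log2 fold change −3.05, SE 0.54, adjusted p = 0.0164). At that dose 0.0790% of all probes were called, and the list was written with earlier results of these data known. Ucp1 was above background on 10 lung arrays and not on the others, and its median log2 ratio over all lungs was 0.18. This limits what its fold change can show. Mesothelium genes had medians of −0.47, −0.92 and −0.72 and 0 of 7 called. The mean over the 7 fat cell genes spanned 1.48 to 4.21 in vehicle lungs, 1.55 to 2.57, 0.73 to 2.15 and 1.08 to 2.28 in the lungs of the 3 doses. The brown fat mean spanned 1.1 to 2.40 in vehicle lungs and 0.75 to 1.30 in all dosed lungs, and the mesothelium mean 0.08 to 0.79 and −0.88 to 0.92. The mean over the 15 skeletal muscle genes stayed between −0.71 and −0.34 in all lungs. The part of these tissues in the heart muscle values was not tested.

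Within the lung the members rose and fell together from mouse to mouse. The correlation of each member with the mean of the other 8 over 20 mice was 0.97 for Sln, 0.97 for Myl4, 0.97 for Myl7, 0.95 for Tnnt2, 0.92 for Tnni3 and 0.90 for Myh6. It was 0.73 for Actc1, 0.72 for Ryr2 and 0.43 for Nppa. After removal of the group means the values were 0.33 for Nppa and 0.65 to 0.97 for the others, so the relation held within dose groups, and without mice 11 and 18, the farthest from the median, they were 0.46 and 0.72 to 0.97. All points share the reference and the array platform, and these values are a description of the chosen genes with no test. Over the 36 pairs of members r had a median of 0.78.

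Taken at the probe with the highest r, genes outside the 9 whose lung pattern was most like theirs were mostly other genes of striated muscle. The highest correlation with the mean of the members over the 20 lungs was that of Ckmt2, the mitochondrial creatine kinase of striated muscle, at 0.970, with log2 ratios from 0.02 to 4.46. It was followed by Myl1, a myosin light chain of fast muscle, at 0.958, Mb, which encodes myoglobin, at 0.957, and Tpm1, a tropomyosin, at 0.955. Csrp3, a muscle LIM protein, had 0.948, Ttn, which encodes titin, 0.945, and Myl3, the ventricular and slow-muscle essential light chain, 0.943. Actn2, the alpha-actinin of the Z-disc, had 0.933, and Mybphl, a myosin binding protein H-like gene, and Myoz2, a Z-disc protein, each had 0.932. The likeness was measured over lung alone, and Csrp3, which reached 4.36 in lung, reached 6.04 in liver.

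The other genes of heart muscle were taken as lists by role. An r of at least 0.8 was found for 9 of 16 other sarcomere genes, 4 of 9 calcium handling genes, 6 of 9 energy genes, 1 of 11 membrane and signalling genes and 0 of 9 transcription factors, beside 41 of the 20641 named genes other than the members (0.199%), each gene being taken at its brightest probe. Where the probe with the highest r stood for each gene instead, 44 genes reached it, 21 of them on the heart muscle lists, the added list gene being the transcription factor Tbx20 through a probe with an r of 0.81 that was above background on 7 of 20 lungs. No gene of the skeletal muscle, smooth muscle, brown fat, fat cell, mesothelium, lung epithelium, endothelium, thymus, hepatocyte or keratinized epithelium lists reached it. The lists were written with earlier results of these data known, so this split depends on how genes were placed. Ckmt2, a gene of striated muscle, was placed on the energy list, and Myl1, of fast muscle with an r of 0.958, was on no list. The median r was 0.46 for brown fat and 0.46 for fat cell genes and 0.27 for both within dose groups.

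**Figure D4:**
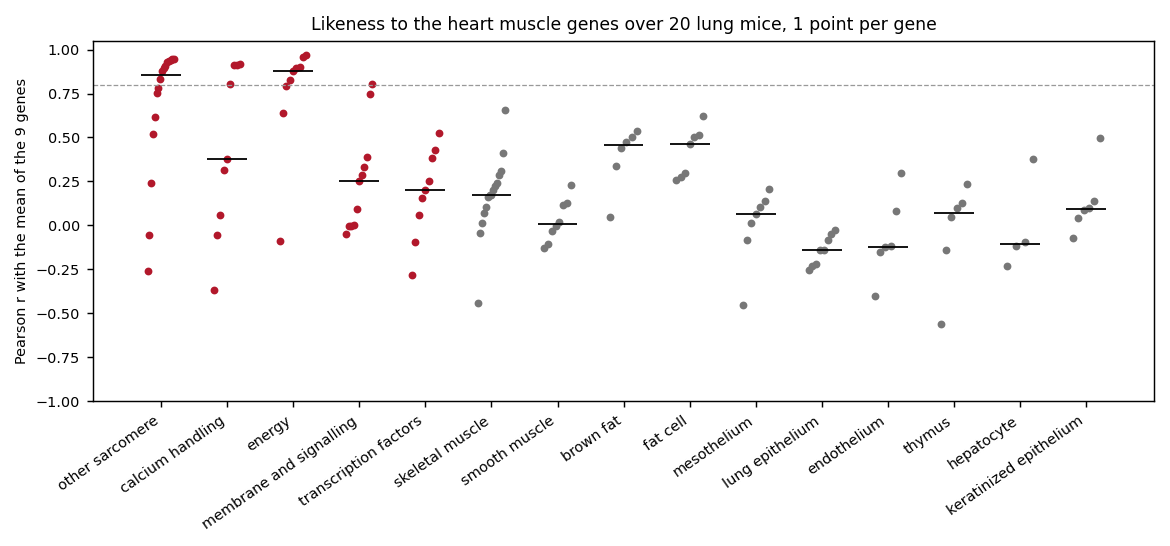
Pearson r, over 20 lung mice, of each listed gene with the mean log2 ratio of the 9 heart muscle genes, 1 point per gene and a line for the median of each list; heart lists are red and lists of other cells grey. Of the 54 genes on the heart lists, 20 lie at or above the dashed line at 0.8 at their brightest probe and no gene of another list does. The lists were written with earlier results of these data known.

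By dose, the heart muscle lists had 0 genes called in lung by limma at any dose. The other sarcomere genes had medians of −0.69, −0.91 and −0.64 from the low to the high dose and 14 of 16 below vehicle each time. Of all probes 49.2%, 49.3% and 49.8% lay below vehicle. Myh7, the brightest of the 16 in lung, lay above vehicle at every dose (0.11, 0.07 and 0.05), and its r with the members was −0.26. The energy genes had medians of −0.90, −0.86 and −0.91. The calcium handling, membrane and transcription factor lists had medians between −0.20 and −0.01.

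In liver 6 of the 9 members were below background on most arrays. Nppa was above background on 0 of 19 arrays, Sln on 2, Tnni3, Myl7 and Ryr2 on 5 each and Myh6 on 6. Myl4, Tnnt2 and Actc1 were above background on 19 of 19 arrays, with log2 ratios of −2.44 to −1.66, −2.04 to −1.37 and −1.58 to −0.23. In vehicle mice Myh6 was 0.06, 0.22, −0.03 and −0.25, and the dosed livers spanned −0.35 to 0.39. Tnni3 was 0.76 in mouse 9, 0.63 in mouse 15, 0.85 in mouse 16 and 0.88 in mouse 20 and at most 0.13 in the other 15 livers. These 4 mice were among the 5 with bright arrays, where 73.2% to 78.9% of probes were above background, and they also had the lowest Actc1, from −1.58 to −1.25.

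No member was called against vehicle in liver by limma. The medians of the log2 fold changes were −0.04, 0.05 and 0.07 from the low to the high dose, 0 of 9 members were called at each dose, and 0% of all probes were called. At an unadjusted p under 0.05 the counts were 0, 0 and 1 of 9 beside 2.60%, 4.44% and 6.87% of probes, the 1 gene being Ryr2 at 50 (log2 fold change 0.27, SE 0.12, adjusted p = 0.721). Sln was −0.07, −0.09, −0.14 and −0.25 in vehicle livers and 0.03, −0.06, 0.12, 0.03 and 0.00 at 50 mg/kg-bw/day. Those groups did not overlap, as in 2.74% of probes (0 of 9 members at the low and the middle dose, with 1.09% and 2.11% of probes), and the exact two-sided permutation test gave p = 0.0159, against an adjusted p of 0.748 in the fit, with Sln above background on 1 of these 9 arrays. With 4 vehicle and 5 dosed mice the smallest p of this test is 0.00794, and it was run for 54 gene and dose comparisons in liver and forestomach, of which 6 gave p under 0.05. These were Sln at 50 and Nppa at 25 mg/kg-bw/day in liver, and Sln and Ryr2 at 25 and Nppa at 25 and 50 mg/kg-bw/day in forestomach. No share over all probes stands beside this count, so nothing is read from it. For Nppa in liver (exact permutation p = 0.0317) the gene was at background in all livers. Without the 5 bright livers 0 of 9 members were called at every dose, and the median was 0.03 at 50 mg/kg-bw/day.

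**Figure D5:**
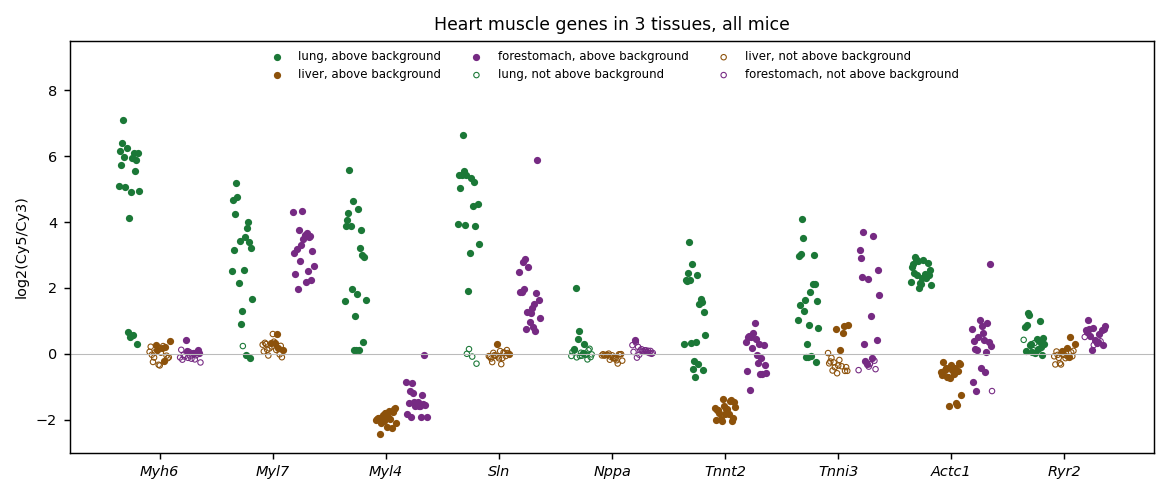
Log2(Cy5/Cy3) of the 9 genes in lung, liver and forestomach, 1 point per mouse, filled where Cy5 was well above background and open where it was not. Myl7, Sln and Tnni3 reach high values in forestomach while Myh6 stays between −0.26 and 0.41 there.

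In forestomach only some members of the group were high. Myl7 was above background on 19 of 19 arrays and had log2 ratios of 4.30, 3.06, 2.44 and 3.20 in vehicle mice 1, 2, 3 and 5, while Myh6 had −0.11, 0.12, −0.18 and −0.03 in the same mice and was above background on none of these 4 arrays. At the 3 doses Myl7 spanned 1.96 to 4.34, 2.17 to 3.65 and 2.25 to 3.57, with every mouse above 1. Sln was 2.47, 1.86, 1.88 and 2.78 in vehicle mice, then 1.98, 2.86, 0.75, 1.26 and 2.62 at 12.5 mg/kg-bw/day, 0.98, 1.23, 1.40, 0.82 and 1.5 at 25, and 0.70, 1.85, 5.87, 1.62 and 1.08 at 50. Mouse 18 stood far above the others in Sln. It was also the highest in Actc1 at 2.74, where the other 18 forestomachs had −1.13 to 1.02, and in Myl4 at −0.04, and the mean of the 15 skeletal muscle genes was 2.53 in this sample and −0.16 to 0.65 in the others. The part of skeletal muscle in these values was not tested.

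Tnni3 split the forestomach samples. Vehicle mice had −0.49, 3.14, 2.92 and 2.32, mice at 12.5 mg/kg-bw/day had 3.70, 0.29, −0.21, −0.29 and 2.28, those at 25 had −0.39, −0.31, 1.15, −0.12 and 3.57, and those at 50 had −0.21, −0.46, 0.41, 2.55 and 1.79. High and low samples occurred in every group, so the groups overlapped throughout. Tnnt2 ranged from −1.09 to 0.93, Myl4 from −1.91 to −0.04 and Ryr2 from 0.11 to 1.02, and Nppa was above background in 1 of 19.

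No member was called against vehicle in forestomach. The medians of the log2 fold changes were −0.09, −0.26 and −0.14, 0 of 9 were called at each dose as were 0% of all probes, and at an unadjusted p under 0.05 the counts were 1, 2 and 1 of 9 beside 4.12%, 3.60% and 3.89% of probes. These were Nppa at all 3 doses, with log2 fold changes of −0.21, −0.19 and −0.23 close to background (adjusted p of 0.977 to 1.00), and Ryr2 at 25 mg/kg-bw/day (−0.31, SE 0.15). Sln at 25 mg/kg-bw/day was below every vehicle mouse in 5 of 5 mice, with a log2 fold change of −1.06 (SE 0.73). No overlap was seen in 1.61% of probes there (0 of 9 members at the low and the high dose, with 0.936% and 1.66% of probes), the exact two-sided permutation test gave p = 0.00794, the smallest it can give, and the adjusted p in the fit, whose spread includes mouse 18, was 1.00. Without the 2 bright forestomachs, mouse 18 among them, 0 of 9 members were called at every dose and the median at 50 mg/kg-bw/day was −0.23.

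In vehicle mice most members were higher in lung than in liver, which is given as a description because the genes were chosen on lung values. Myh6 was 6.09 ± 0.75 (SD, n = 5) in lung, 0.00 ± 0.19 (n = 4) in liver and −0.05 ± 0.13 (n = 4) in forestomach. As a ratio to the reference this was 68.1-fold against liver and 70.5-fold against forestomach. Myh6 was not above background in any vehicle liver or forestomach, and in Cy5 alone, after loess and scaling between arrays, its lung level was at least 204-fold that of liver and at least 209-fold that of forestomach. The size thus depended on the measure. The Cy3 (reference) signal of this probe had a median of 238 over all lung arrays, 67.5 over liver and 80 over forestomach arrays, and no dyes were swapped. Between lung and liver 8 of 9 members were called, all higher in lung (26.9% of all probes were called, 15.7% as higher in lung), and between lung and forestomach 5 of 9 (19.5%, with 10.6% higher in lung), namely Myh6, Myl4, Sln, Tnnt2 and Actc1. Neither Myl7 (3.95 ± 1.1 in lung, 3.25 ± 0.78 in forestomach) nor Tnni3 (2.52 ± 1.25 and 1.97 ± 1.68) nor Ryr2 (0.69 ± 0.44 and 0.73 ± 0.21) was separated from forestomach by more than the spread between mice.

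Between forestomach and liver of vehicle mice, Myl7, Tnnt2, Tnni3 and Ryr2 were higher in forestomach, as was Sln once lung arrays were left out. The choice of genes used neither tissue, but the joint fit of all 58 arrays takes its spread from the lungs too, so the comparison was also fitted without lung arrays, an alternative chosen after the data were seen. Without lung arrays 5 of 9 members were called, all higher in forestomach, beside 22.2% of all probes. Myl7 was higher by 3.00 (SE 0.36, adjusted p = 1.86e-08), Tnnt2 by 1.98 (SE 0.28, adjusted p = 5.24e-07) and Ryr2 by 0.82 (SE 0.14, adjusted p = 1.84e-05). Sln was higher by 2.39 (SE 0.57, adjusted p = 0.00108) and Tnni3 by 2.13 (SE 0.80, adjusted p = 0.0427). In the joint fit 4 of 9 were called, where 12.8% of all probes were called in that direction and 22.7% in either, and Sln was not among them (SE 0.95, adjusted p = 0.0502). With the 8 vehicle arrays of the pair of tissues alone, 6 of 9 were called beside 22.8% of probes, Myl4 being added with a difference of 0.64 (SE 0.18, adjusted p = 0.0174). In the joint fit Tnni3 (adjusted p = 0.0423) lost its call without any 1 of forestomach vehicle mice 2, 3 and 5 or of liver vehicle mice 1, 2, 3 and 5 (adjusted p of 0.0614 to 0.154), and with Cy5 alone neither Tnni3 (adjusted p = 0.107) nor Ryr2 (adjusted p = 0.0545) was called. For Myh6 the difference was −0.05 (SE 0.14 without lung arrays), with neither tissue above background in vehicle mice. Myl7, Sln, Tnni3 and Ryr2 were not above background in any vehicle liver, so their differences are against background. In Cy5 alone, after loess and scaling between arrays, the forestomach level of Myl7 was at least 7.07-fold that of liver. The same bound was 3.48-fold for Sln, 3.88-fold for Tnni3 and 1.39-fold for Ryr2, the last being below the fold needed for a call.

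The lung and forestomach of the same mouse were also set side by side. Over 19 mice r between the tissues lay between −0.40 for Tnnt2 and 0.49 for Tnni3, was −0.04 for Myh6 and −0.19 for Sln, and is a description of samples that share slides and reference. Mice 9, 11, 14 and 18, low in lung, had forestomach Myl7 of 3.32, 3.47, 3.65 and 2.25.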

How the data were processed

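RNA of lung, liver and forestomach was measured on dual-colour Agilent arrays. The authors deposited scanner intensity per spot, the scanner's log10 ratio (the deposited log10 column, used only as an alternative) and a table of processed log2 values. Per the labels, samples were grouped by tissue and dose. Median Cy5 and Cy3 intensity, as deposited, was normalised by loess within each array with no background subtraction, spots marked as outliers were left out, spots of a probe were averaged, and log2 ratios were fitted per tissue with limma 3.58.1 in R 4.3.3, with Benjamini-Hochberg adjustment over 55681 probes. Tissues were compared in vehicle mice in 1 fit of all arrays, and forestomach with liver also without the lung arrays. The number of arrays limits the precision. The members and gene lists were chosen with earlier results of these data known. Genes were named by design accession, the brightest probe standing for a gene, and the genes most like the members were the 10 with the highest Pearson r in lung at any probe. Alternatives changed the background correction, normalisation, outlier spots, dim probes, probe summary, slide or mouse block, variance model, value source and arrays used. The limma fit was tested on simulated lung values with independent normal noise for each probe. That setting differs from the members, which moved together from lung to lung. The deposited log2 table correlated with the scanner values in lung and forestomach (r of 0.996 to 0.999) but its liver probe names did not match (r of −0.00681 to 0.00675), so it was not used for liver. Same-numbered tissues come from the same mouse by the labels, and the median correlation of their deviations was 0.05 between lung and liver, 0.15 between lung and forestomach and 0.02 between forestomach and liver.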

Additional observations from a re-analysis of the deposited data

Results flagged for a closer look

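Of 108 groups of 4 or 5 arrays, 11 held a value far from the rest of its group, where chance alone gives about 1 in 20. In lung these were Myh6 in mouse 18 at 50 mg/kg-bw/day (0.31, the lowest), Nppa in vehicle mouse 5 (1.99) and in mouse 13 at 25 mg/kg-bw/day (0.30), and Ryr2 in mouse 6 at 12.5 mg/kg-bw/day (1.19). In liver they were Sln (0.31), Tnni3 (0.76) and Actc1 (−1.58) in mouse 9 at 12.5 mg/kg-bw/day, Actc1 in mouse 15 at 25 mg/kg-bw/day (−1.5) and Tnnt2 in vehicle mouse 2 (−2.00), and the arrays of mice 9 and 15 were among the bright ones. In forestomach they were Sln in mouse 18 at 50 mg/kg-bw/day (5.87) and Tnnt2 in vehicle mouse 2 (−0.53).

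Sln at 50 mg/kg-bw/day lay below the vehicle mean in 5 of 5 lungs (log2 fold change −1.96) and above it in 5 of 5 livers (0.16), and the difference between the tissues was not tested. Sln was above background in 1 of the 9 livers compared.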

How the results depend on the processing

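The counts of members called by dose were 0 in every tissue under every alternative, including each array left out in turn. With the scanner's own log ratio the median log2 fold changes in liver became 0.13 at the low and 0.18 at the middle dose, and those of forestomach −0.46, −0.48 and −0.74 from the low to the high dose. The cause was not tested. With each array left out in turn, the lung medians ranged from −1.73 to −0.83, −1.95 to −1.18 and −1.66 to −0.64, and the members called numbered 8 to 9 for lung against liver, 5 for lung against forestomach and 3 to 5 for forestomach against liver. With Cy5 alone 2 members were called between forestomach and liver, against 4. For single genes, the lung against liver call of Ryr2 was lost under median centring (0.57), Nppa was gained there without lung vehicle mouse 1 or 2, and Tnni3 at 50 mg/kg-bw/day in liver was −0.32 without the bright arrays, against 0.21. With the mouse as a replicate block 8, 5 and 4 members were called and no call changed. Leaving out the bright arrays was chosen after seeing the data and gave 8, 5 and 5, although no vehicle forestomach or liver array was bright, so that for forestomach against liver only the pooled spread changed. The fits of forestomach against liver without lung arrays (5 called) and with vehicle arrays alone (6 called) were also chosen after seeing the data. The deposited log2 table was not run for liver. Probes near background, among them Nppa in all tissues and Myh6 in liver and forestomach, limit what a ratio can show there.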

Other observations

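The Cy3 channel held the same reference RNA on every array, yet the Cy3 signal of the Myh6 probe ranged from 43 to 801 in lung with a median of 238, beside medians of 67.5 in liver and 80 in forestomach. In the lung of mouse 5 the Cy5 signal of Myh6 was 67613 and the Cy3 signal 673, and in mouse 11 they were 115 and 43. The Cy3 signal of Sln was above background on 10 of 20 lung arrays, 2 of 19 liver arrays and 1 of 19 forestomach arrays. That of Actc1 had a median of 838.75 in lung, beside 241.5 in liver and 246.5 in forestomach. The cause was not tested.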
